A study of Danio rerio with 4 samples.

Results

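Uninjured hearts of zebrafish lacking the enhancer LEN were compared with uninjured wild-type hearts across all genes with a level of at least 1 CPM (read counts scaled to a common library total) in either of the 2 libraries, which were 15424 of the 32520 gene IDs counted. LEN is an enhancer of regenerating tissue that lies near lepb, the leptin b gene, which encodes a secreted hormone, and the question was which genes differ between the genotypes before any injury. The wild-type fish were of the Ekkwill strain with the genotype LEN+/+, and the mutant fish were of the same strain and homozygous for a deletion of LEN. Hearts of each genotype were also taken 3 days after amputation (3 dpa). Whole-heart RNA was sequenced in 1 library for each of the 4 groups, and neither the age of the fish nor the number of hearts in a library was given.

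Leptins bind the receptor encoded by lepr, which belongs to the cytokine receptor class and signals through Janus kinases and Stat transcription factors. Zebrafish have a pair of leptin genes, lepa and lepb. Zebrafish regrow amputated heart muscle, and enhancers such as LEN are known for switching on expression in injured heart tissue, so an uninjured heart is a state in which lepb is normally close to silent.

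With 1 library a group, no difference between hearts could be tested and no p-value is given. A gene was called higher or lower in the mutant when its log2 ratio, mutant over wild type, was at least 1 in size and its 95% counting interval excluded 0. That interval covers counting error only. The 2 uninjured libraries held 31618442 and 31898971 counts, and the 3 dpa libraries held 35026983 and 34757291. Mitochondrially encoded genes took 16.06% of counts in the wild-type and 16.7% in the mutant uninjured library, and 11.28% and 11.93% at 3 dpa. Counts in 4 libraries are given below in the order wild type uninjured, mutant uninjured, wild type 3 dpa and mutant 3 dpa. Cardiac muscle markers were abundant in both uninjured libraries: the 61 gene IDs of the sarcomere list summed to 101400 CPM in wild type and 112100 CPM in the mutant, and the myosin light chain gene MYL7 had 381036 and 382933 counts.

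The wild-type uninjured library stood apart from the other 3 for genes of liver and thyroid. The 46 gene IDs of the liver marker list summed to 2420 CPM there, against 532 CPM in the mutant uninjured library and 767 and 836 CPM at 3 dpa. The 13 IDs of the thyroid follicle list summed to 1090 CPM there, against 247, 100 and 170 CPM. Most of that sum was the thyroglobulin gene TG, with 32378 of the list's 34463 counts in wild type and 6623 of 7892 in the mutant, both uninjured. Of the 569 genes called lower in the mutant, 206 had a wild-type uninjured level at least 4-fold above that of each other library, whereas 7 of the 593 genes called higher had a mutant uninjured level at least 4-fold above each other library. Counts of lower genes are therefore given with and without the liver, complement and thyroid lists.

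The targeted region showed no called difference before injury. The gene lepb (ENSDARG00000045548) had 2 counts in each uninjured library, 78 counts in wild type at 3 dpa and 2 in the mutant at 3 dpa. Both uninjured libraries were at or below the 3 counts taken as the smallest level a library can show, so an effect of the deletion on lepb was not detectable in uninjured hearts at this depth. Its paralogue lepa had 1, 0, 24 and 13 counts, which leaves it at the same limit in uninjured hearts. The receptor gene lepr had 787, 1063, 1125 and 1180 counts. Its uninjured log2 ratio of 0.44 (95% counting interval, 0.31 to 0.57) was above 0 and short of the threshold, and the 3 dpa ratio was 0.05. Of 27 other genes that RefSeq places within 500 kb of lepb, 9 were tested and 0 were called. Among them the ratio was lowest for the long noncoding RNA gene si:dkey-31f5.8 (69 and 47 uninjured counts, -0.53) and highest for def6c (26 and 52 counts, 0.96).

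In the whole comparison 1162 genes were called, which is 7.53% of those tested. Higher in the mutant were 593 genes (3.84%) and lower were 569 (3.69%). The log2 ratios of all tested genes had a median of -0.025, and the middle 90% ran from -0.83 to 0.88. The middle range was narrower between the genotypes at 3 dpa, from -0.39 to 0.65 over the same genes. Calls were most frequent among genes of low level: 17.2% of the genes between 1 and 3 CPM were called, against 4.02% between 10 and 100 CPM and 2.30% from 100 CPM upwards. The directions also differed in size. Among lower genes, 143 had log2 ratios of -4 or below, while 4 higher genes reached 4.

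**Figure D1:**
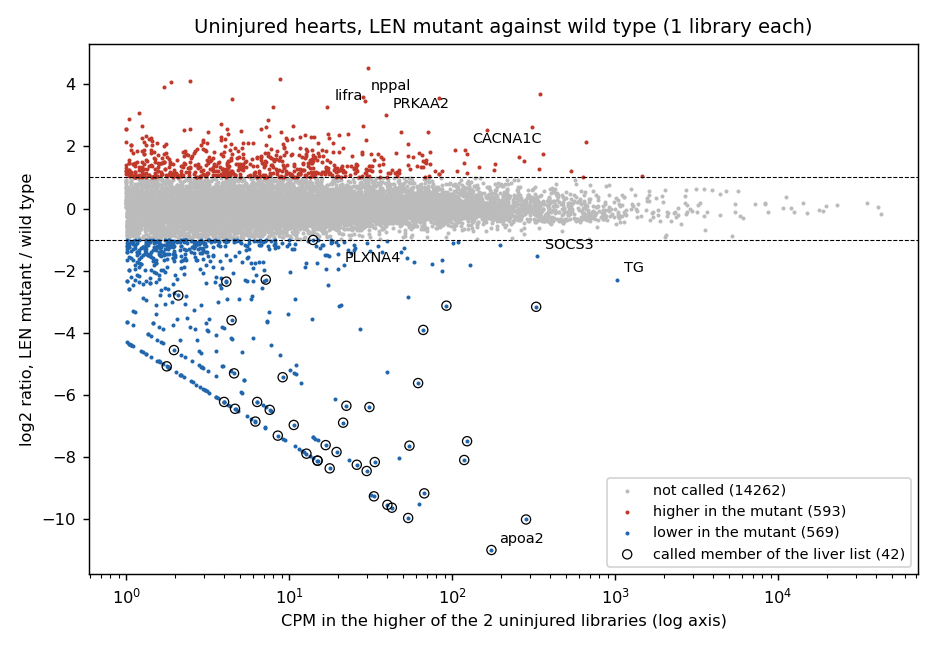
Log2 ratio of mutant over wild type in uninjured hearts (vertical) against the CPM of the higher library (horizontal, log axis) for 15424 genes; each point is a gene, red and blue points are the 593 and 569 called genes, and dashed lines mark the threshold of 1. Circled members of the liver list reach log2 ratios of -10.99, whereas the red points seldom pass 4.

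The group with the largest differences was the liver list. Hepatocytes make and secrete most plasma proteins, and of the 44 tested markers 42 were called lower in the mutant and 0 higher, with a median log2 ratio of -6.87. Since 15 of the list's IDs were at 0 counts in the mutant, the median was also taken with those genes at a bound of 3 counts, which gave -6.48. The apolipoprotein gene apoa2 had 5504, 1, 5 and 6 counts (-10.99), and apoa1b had 8972, 7, 3 and 6 counts (-10.005). The fatty acid binding protein gene fabp10a, a standard zebrafish hepatocyte marker, had 3748, 12, 0 and 7 counts (-8.09). Only the wild-type uninjured library was high for these genes.

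Fibrinogen, the clotting protein of plasma, has its 3 chains encoded by fga, FGB and FGG. The counts of fga were 1697, 0, 0 and 4, at least 564-fold lower in the mutant when its library is set at 3 counts. Those of FGB were 1348, 0, 7 and 5, at least 448-fold lower, and those of FGG were 1265, 0, 1 and 1, at least 420-fold lower. The transferrin gene tfa, which encodes the iron carrier of plasma, had another pattern. It had 10356, 1151, 14879 and 16268 counts, so the mutant uninjured library was the low one and both 3 dpa libraries were above the wild-type uninjured library. Its uninjured log2 ratio was -3.16 and its 3 dpa ratio 0.11. At 3 dpa tfa made up 14879 of the 26864 counts of the liver list in wild type and 16268 of 29058 in the mutant.

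Complement and secreted protease inhibitor genes, many of them also made by liver, gave 28 of 42 called lower and 0 higher, with a median of -4.26. This list overlaps the liver list, which also holds c9 and c3a.2. The complement component gene c9 had 821, 1, 1 and 0 counts. The complement component gene c3a.2 had 471, 0, 0 and 0 counts, at least 156-fold lower. The inhibitor gene itih3b.2 had 1008, 0, 1 and 0 counts. Each of these 3 genes had 0 or 1 counts in either 3 dpa library, so the genotypes could not be compared for them there. The whole list had a 3 dpa median of -0.012. How far members with so few counts hold that median near 0 was not tested.

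Thyroid follicle genes also belonged to the lower group, with 5 of 8 called lower, 0 higher and a median of -1.96, which was -0.585 over the members that reached 10 CPM. Thyroglobulin, the precursor protein of thyroid hormone, is encoded by TG, which had 32378, 6623, 2492 and 4714 counts. Its log2 ratio was -2.28 (95% counting interval, -2.32 to -2.25) in uninjured hearts and 0.90 at 3 dpa. The mutant uninjured library was thus low beside wild type and high beside both 3 dpa libraries. The sodium iodide transporter gene SLC5A5, with 98, 17, 10 and 13 counts, and the thyroid transcription factor gene PAX8, with 110, 20, 7 and 5 counts, had log2 ratios of -2.41 and -2.36; these were named after their values were seen. In bulk RNA, fewer cells of a type and less RNA per cell cannot be told apart. Without the liver, complement and thyroid lists 500 genes remained called lower, and their median ratio was -1.53. The lists held 69 of the lower calls. As 206 lower genes had a wild-type uninjured level at least 4-fold above each other library, many of those remain among the 500.

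Markers of other tissues and cell types gave 0 to 4 calls a list. The 18 IDs of the exocrine pancreas list summed to 71.9 CPM in wild type and 76.5 CPM in the mutant, with 0 of 5 called. Nerve and Schwann cell markers had 0 of 12 called. Epicardial markers had 0 of 28 called and a median of 0.013, and macrophage markers had 1 of 25 called higher and 2 lower. T, NK and B cell markers had 2 of 11 called higher and 1 lower (median -0.155). Erythroid markers had 2 of 16 higher and 1 lower (median -0.161), and neutrophil markers 2 of 14 lower (median -0.61). Over all tested genes 7.53% were called, and 17.2% of those between 1 and 3 CPM. No difference was read from the few calls in these blood cell lists. In the gill and skin epithelium list 1 of 9 was called lower, with a median of -0.82, and the sum was 1000 CPM in wild type against 667 CPM in the mutant. The epithelial adhesion gene epcam, its called member, had 212, 93, 158 and 257 counts (-1.17).

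Immediate early genes were a second list with more lower than higher calls. Immediate early genes are switched on within minutes of a stimulus, and 9 of 30 were called lower and 1 higher, with a median of -0.48 and 3 members above 0. Among all tested genes 3.69% were called lower and 3.84% higher. The list's genes were short, with a median length of 4.1 kb including introns, and 8.47% of genes up to 5.009 kb were called lower. The transcription factor gene FOS had 683, 191, 901 and 606 counts (log2 ratio -1.82, interval -2.07 to -1.60). The transcription factor gene egr1 had 1676, 555, 2841 and 2393 counts (-1.59). The antiproliferative gene BTG2 had 2748, 676, 5271 and 3250 counts (-2.02). In each of these the mutant uninjured library was the lowest of the 4. The mitogen-activated kinase phosphatase gene DUSP1 followed with 2728, 856, 3877 and 3091 counts (-1.67), and the exception in direction was KLF4, a zinc finger factor gene with 132, 342, 248 and 217 counts (1.37). At 3 dpa 0 of the 30 were called, and the median was -0.22.

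The lists of glucocorticoid response genes and of growth arrest and p53 target genes also had more lower than higher calls. Beside both lists, 3.69% of all tested genes were called lower and 3.84% higher. BTG2, given above, is a member of the growth arrest and p53 target list as well. Glucocorticoid response genes had 8 of 25 called lower and 0 higher, with a median of -0.30. They included CEBPD, a transcription factor gene with 4090, 1160, 6296 and 5026 counts (-1.81). They also included DDIT4, an inhibitor of growth signalling through mTOR, with 311, 28, 913 and 1032 counts (-3.39 in uninjured hearts and 0.16 at 3 dpa). The mutant uninjured library held the fewest counts of both. The called PCK1, which encodes an enzyme of glucose production that liver also makes, had 373, 6, 4 and 4 counts. Growth arrest and p53 target genes had 5 of 28 called lower and 0 higher (median -0.20). These 5 included BTG2 and DDIT4, which were also counted in the lists above. The 5 also held a pair of IDs with the symbol GADD45B. They had 320, 77, 510 and 445 counts (ENSDARG00000013576) and 2382, 686, 2662 and 2571 counts (ENSDARG00000027744).

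**Figure D2:**
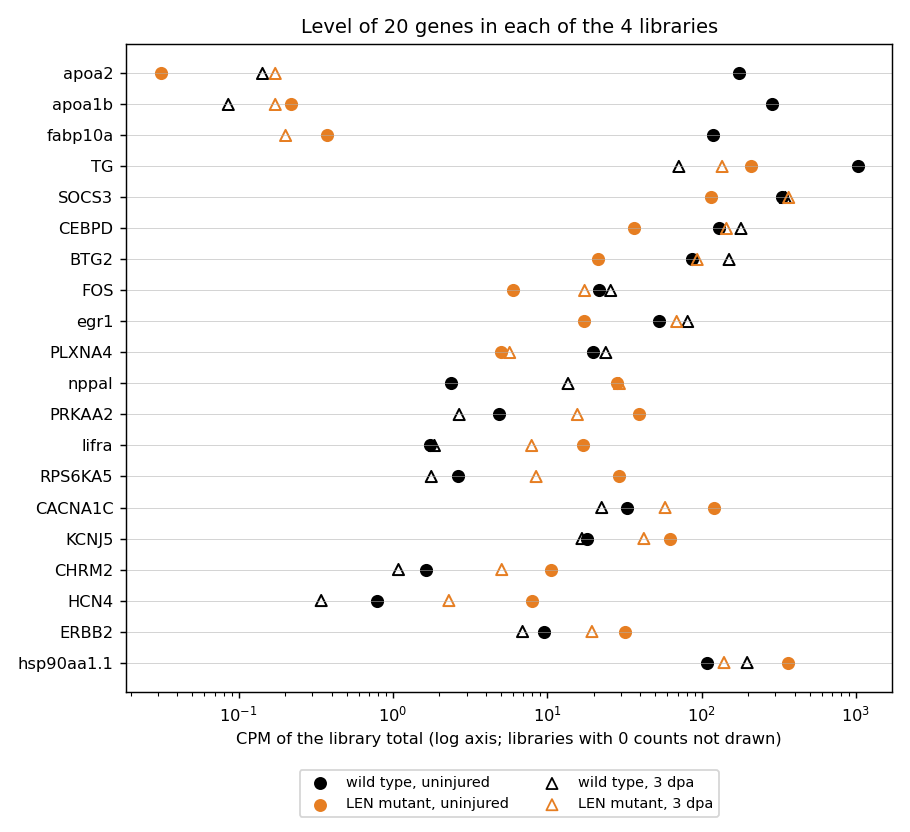
CPM of 20 named genes in each of the 4 libraries (horizontal, log axis); circles are uninjured and triangles 3 dpa libraries, black is wild type and orange is LEN mutant. The liver genes are high in the wild-type uninjured library only, FOS, egr1, SOCS3 and CEBPD are lowest in the mutant uninjured library, and PRKAA2, lifra, CACNA1C and KCNJ5 are higher in the mutant at either state.

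Among cell cycle genes few were called, and most ratios were below 0. Adult zebrafish heart has little proliferation before injury, and the 56 IDs of the cell cycle list summed to 239 CPM in wild type and 177 CPM in the mutant, against 1540 and 1603 CPM at 3 dpa. Of the 41 tested, 5 were called lower and 0 higher, 2 had ratios above 0, and the median was -0.61. In the whole comparison 3.69% of genes were called lower and 47.4% were above 0. The called members were all below 5 CPM, where calls were more frequent among all genes too, and were named after their values were seen. The condensin gene SMC2 had 129, 60, 1266 and 1289 counts (-1.08), and the mitotic kinesin gene kif11 had 109, 52, 1450 and 1562 counts (-1.04). The mutant library had the fewest counts of both in uninjured hearts, and their 3 dpa ratios were 0.007 and 0.088.

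Ribosomal protein genes showed a small difference in 1 direction. Of 75 tested, 0 were called, yet 74 had log2 ratios below 0, with a median of -0.35, and the 76 IDs of the list summed to 43840 CPM in wild type and 34110 CPM in the mutant. At 3 dpa 0 of the 75 were above 0, and the median was -0.19. Nuclear oxidative phosphorylation genes followed in uninjured hearts, with 43 of 44 below 0 and a median of -0.18. Their median length with introns was 6.0 kb, and all tested genes of 5.017 to 7.916 kb had a median ratio of -0.148. No difference particular to this list was read from its median. The 13 mitochondrially encoded genes had 9 members above 0 and a median of 0.11. None of the list medians given here changed sign under the scalings tried.

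Interferon-induced Mx genes were among the lower genes of low level. The list of interferon response and antigen presentation genes had 3 of 42 called lower and 0 higher, with a median of -0.098. All 3 were Mx genes, which encode antiviral dynamin-like proteins and were named after their values were seen. The share called was 7.53% over all tested genes and 17.2% between 1 and 3 CPM, where mxc and mxb lay. No difference of the list was read from these calls. The counts of mxc were 48, 10, 271 and 111, with log2 ratios of -2.08 in uninjured hearts and -1.29 at 3 dpa. The counts of mxb were 42, 16, 320 and 130, with ratios of -1.299 and -1.303. Mutant libraries were the lower ones for mxb and mxc at either state, and mxe, with 36, 17, 192 and 118 counts, was called in uninjured hearts alone.

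Among the higher genes with a symbol and at least 10 CPM, nppal had the largest ratio. It encodes a natriuretic peptide, a class of hormones that heart muscle secretes under load. It had 75, 908, 477 and 1018 counts, 12.2-fold higher in the mutant uninjured heart (log2 ratio 3.57, interval 3.26 to 3.96), and the wild-type uninjured library was the low one. The related peptide genes were not called: nppa had 93738 and 88624 uninjured counts (-0.076), and nppb had 13521 and 14862 (0.14). The peptide gene nppc was called lower, with 539, 191, 460 and 350 counts (-1.48). The 16 tested natriuretic peptide and stretch genes together had 1 called higher and 2 lower, with a median of 0.22. The shares over all tested genes were 3.84% called higher and 3.69% called lower.

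Ion channel and calcium handling genes of cardiac muscle were called in 4 of 45 cases, all higher. Among all tested genes 7.53% were called in either direction, and 3.84% were called higher. CACNA1C, the pore subunit of the L-type calcium channel, had 1043, 3848, 788 and 2013 counts, with log2 ratios of 1.89 (interval 1.79 to 1.99) in uninjured hearts and 1.33 at 3 dpa. HCN4 (ENSDARG00000061685, 1 of 2 IDs with the symbol), a pacemaker current channel, had 25, 255, 12 and 80 counts, with ratios of 3.27 and 2.51. KCNJ5, a potassium channel opened by vagal signals, had 572, 1985, 587 and 1467 counts, with ratios of 1.797 and 1.299. For these 3 genes each mutant library lay above both wild-type libraries. SLC8A1 (ENSDARG00000013422, 1 of 2 IDs), the sodium-calcium exchanger of heart muscle, had 22774, 46889, 19822 and 28605 counts, and its ratio was 1.05 in uninjured hearts and 0.51 at 3 dpa. The other IDs of HCN4 and SLC8A1 were not among the 4 called. Over the list of 45 the median was 0.17.

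The contractile apparatus differed less. Of 42 sarcomere genes, 1 was called higher and 0 lower, with a median of 0.14, where 3.84% of all tested genes were called higher. The called gene was obscnb, whose product obscurin links the sarcomere to the sarcoplasmic reticulum, with 2170, 5816, 1774 and 3134 counts (1.43). The troponin gene TNNT2 (ENSDARG00000020610) had 99996 and 92322 uninjured counts (-0.11), and cmlc1, a myosin light chain gene, had 274182 and 255215 (-0.098).

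Genes that carry autonomic signals to the heart had 6 of 38 called higher and 0 lower, with a median of 0.355. By comparison, 3.84% of all tested genes were called higher. The muscarinic receptor gene CHRM2 (ENSDARG00000098612, 1 of 2 IDs), through which the vagus nerve slows the heart, had 52, 337, 38 and 176 counts, with log2 ratios of 2.66 and 2.13. The phosphodiesterase gene PDE10A, whose product breaks down cyclic nucleotides, had 136, 506, 112 and 354 counts, with ratios of 1.89 and 1.62. The G protein gene gna11b had 113, 410, 184 and 503 counts, with ratios of 1.85 and 1.42. In all 3 both mutant libraries were above both wild-type libraries. PDE3A, a cyclic AMP phosphodiesterase of heart muscle, had 389, 945, 722 and 1092 counts and was called in uninjured hearts (1.28) and not at 3 dpa (0.58).

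Receptors for growth factors and cytokines held 14 called higher and 0 called lower among 54 tested, and 44 of the 54 were above 0 (median 0.31). Of all tested genes, 3.84% were called higher and 47.4% were above 0. The receptor gene lifra, which binds a cytokine of the IL-6 family, had 55, 544, 65 and 275 counts, with log2 ratios of 3.27 (interval 2.91 to 3.74) and 2.02. The receptor gene il11ra had 266, 894, 263 and 628 counts, with ratios of 1.75 and 1.23. ERBB2, a co-receptor for neuregulin, which drives division of heart muscle cells, had 299, 1019, 242 and 676 counts, with ratios of 1.77 and 1.46. Again the mutant libraries were the higher ones at either state. BMPR2 (ENSDARG00000020057, 1 of 2 IDs), a receptor for bone morphogenetic proteins, had 139, 735, 192 and 481 counts (2.39 and 1.296). At 3 dpa 10 of the 54 were called higher and 0 lower.

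The list that joins leptin, IL-6 family and Jak-Stat genes had few calls, in both directions. Of its 35 tested genes, 2 were called higher and 2 lower, with a median of 0.093, where 7.53% of all tested genes were called. The leptin receptor gene lepr was not called (0.44). The higher genes were the receptors lifra and il11ra. The lower genes were SOCS3 and il11a. SOCS3 (ENSDARG00000025428, 1 of 2 IDs), a feedback inhibitor of cytokine receptors, had 10545, 3665, 12195 and 12722 counts, with log2 ratios of -1.52 (interval -1.57 to -1.465) in uninjured hearts and 0.042 at 3 dpa. The cytokine gene il11a, whose product binds the il11ra receptor, had 632, 276, 449 and 550 counts (-1.19). The other SOCS3 ID was not called. For the called ID and il11a the mutant uninjured library was the lowest of the 4.

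PRKAA2 encodes a catalytic subunit of AMPK, the kinase that senses falling cellular energy. It had 154, 1247, 94 and 544 counts, 8.13-fold higher in the uninjured mutant (log2 ratio 3.01) and called at 3 dpa (2.49). The list of AMPK subunit and energy sensing genes had 5 of 31 called higher, 0 lower and a median of 0.24. The share called higher over all tested genes was 3.84%. PPARGC1A, a coactivator that promotes mitochondrial biogenesis, had 1085, 2506, 773 and 1072 counts (1.21). The fatty acid receptor gene PPARA, a member of the cardiac transcription factor list instead, had 137, 476, 70 and 218 counts (1.79 and 1.59). The related gene pparaa, a neighbour of lepb, had 257, 309, 232 and 193 counts (0.27 and -0.28) and was not called. Outside both lists, among the 15 largest ratios, RPS6KA5, a nuclear kinase activated by MAP kinases, had 83, 928, 62 and 294 counts (3.46 and 2.19). HIPK2, a nuclear kinase that acts on transcription factors, had 414, 2278, 336 and 1136 counts (2.46 and 1.73). Fatty acid uptake and oxidation genes, with 0 of 44 called and a median of 0.079, and glycolysis genes, with 1 of 34 called lower and a median of -0.069, showed little difference as groups.

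Genes that link cells to the matrix had 14 of 69 called higher and 2 lower, with 59 above 0 and a median of 0.36. The shares over all tested genes were 3.84% called higher, 3.69% called lower and 47.4% above 0. PEAK1, a scaffold of focal adhesions, had 281, 1556, 396 and 1172 counts (2.47 and 1.54). PXN (ENSDARG00000060766, 1 of 2 IDs), which encodes the adhesion protein paxillin, had 203, 944, 237 and 777 counts (2.21 and 1.69). The tensin gene tns2a had 408, 1710, 330 and 1063 counts (2.07 and 1.66). All 3 were higher in each mutant library than in either wild-type library. Lower was 1 of the 4 tested IDs with the symbol ITGB1, an integrin subunit (ENSDARG00000022689), with 177, 59, 161 and 95 counts (-1.55), and 0 of the other 3 IDs were called. At 3 dpa 10 of the 69 were called higher and 0 lower.

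Semaphorins and plexins, ligands and receptors that guide axons and vessels, had 5 of 34 called higher and 1 lower, with a median of 0.37. Beside these calls, 3.84% of all tested genes were called higher and 3.69% lower. Of genes from 101.1 kb in length with introns, 11.9% were called higher, and the list's median length was 142.4 kb. The receptor gene PLXNA2 had 123, 641, 168 and 478 counts (2.37 and 1.48), and the ligand gene SEMA3A had 383, 995, 611 and 1038 counts (1.38 and 0.74). The lower member was the receptor gene PLXNA4, with 628, 160, 838 and 198 counts. Its log2 ratios were -1.96 (interval -2.23 to -1.72) and -2.09, so that both mutant libraries lay below both wild-type libraries.

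Cardiac transcription factor genes had 3 of 37 called higher and 0 lower, with 31 above 0 and a median of 0.295. The called genes included PPARGC1A and PPARA, given above. The endothelial and endocardial list had 1 of 38 called higher and 2 lower. Beside both lists, 3.84% of all tested genes were called higher and 3.69% lower. NOTCH1 (ENSDARG00000052094, 1 of 2 IDs), a receptor of endocardial signalling, had 4573, 10929, 3494 and 6654 counts (1.26), while plvapa and plvapb, genes of endothelial pore diaphragms, had 512 and 227 and 571 and 264 uninjured counts (-1.16 and -1.10). The other NOTCH1 ID was not called.

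Heat shock and unfolded protein genes were above 0 for 39 of 47 tested in uninjured hearts, with 2 called higher and 0 lower (median 0.275). Of all tested genes, 47.4% were above 0 and 3.84% were called higher, so no difference of the list was read from the 2 calls. The chaperone gene hsp90aa1.1, which muscle cells use to fold myosin, had 3415, 11550, 6902 and 4850 counts, with log2 ratios of 1.76 in uninjured hearts and -0.53 at 3 dpa. The chaperone gene HSPA8 (ENSDARG00000037403, 1 of 2 IDs) had 90, 450, 105 and 90 counts (2.31 and -0.24). For both the mutant uninjured library was the highest of the 4. The other HSPA8 ID was not called. At 3 dpa 15 of the 47 were above 0 and the median was -0.089.

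**Figure D3:**
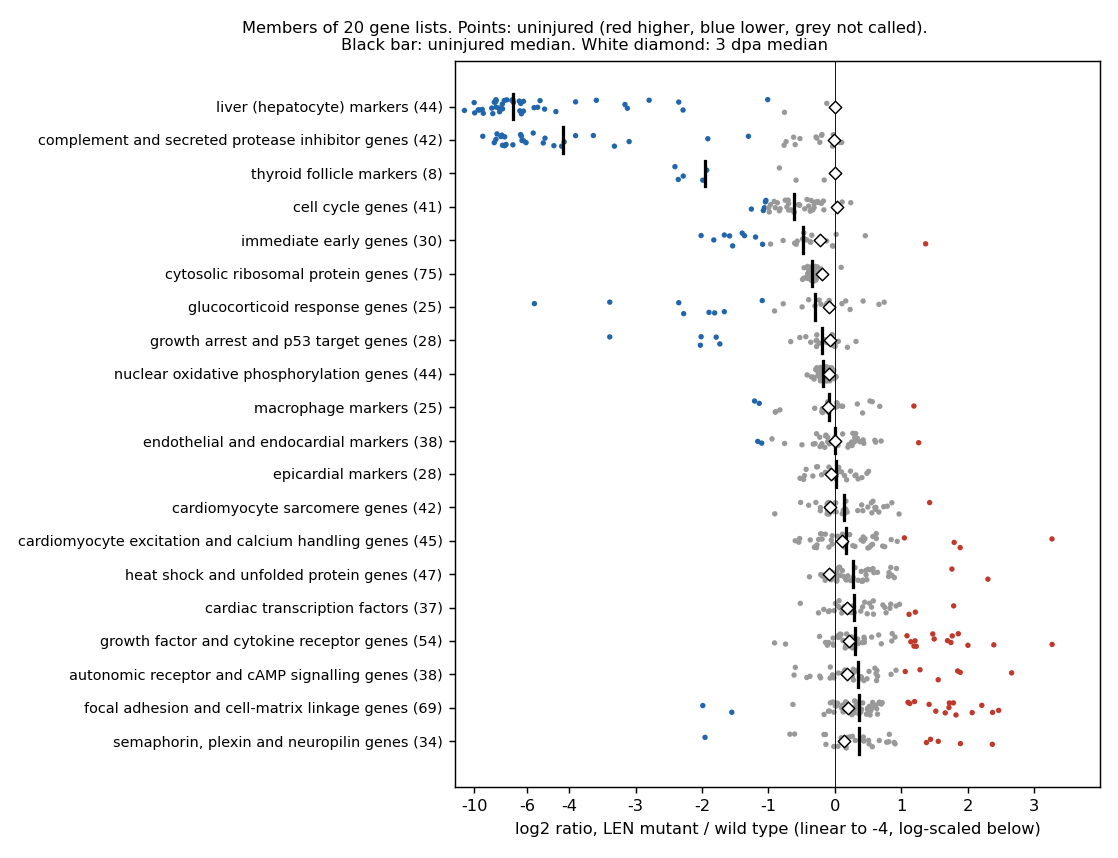
Log2 ratio of mutant over wild type (horizontal, linear down to -4 and log-scaled below) for the tested members of 20 gene lists (rows, number tested in brackets); points are uninjured values, red called higher, blue called lower and grey not called, the black bar is the uninjured median and the white diamond the 3 dpa median. Liver, complement and thyroid lists have uninjured medians of -6.87, -4.26 and -1.96 and 3 dpa medians near 0. Liver and complement genes such as FGG (1 and 1 counts at 3 dpa) and c3a.2 (0 and 0) had too few counts there to compare the genotypes. The receptor, autonomic, focal adhesion and semaphorin lists have medians to the right of 0 in both comparisons.

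Higher genes were long genes. RefSeq spans, from the start to the end of a gene with its introns, were available for 508 of the 593 higher genes and 505 of the 569 lower genes. The median span was 70.9 kb for higher genes, 12.1 kb for lower genes and 20.4 kb for all tested genes with a span. When all genes were cut by span into 10 classes of about equal size, 0.918% of the shortest class and 11.9% of the longest class were called higher, whereas 8.47% and 1.62% were called lower. The median log2 ratio went from -0.20 in the shortest class to 0.20 in the longest. The same direction was seen between the separate 3 dpa libraries, where medians went from -0.093 to 0.12. Some gene lists differed in span in the same way. The focal adhesion list had a median span of 86.0 kb and the semaphorin list 142.4 kb, against 5.0 kb for ribosomal protein and 4.1 kb for immediate early genes. Other lists did not. Heat shock genes had a median span of 7.9 kb and a median ratio of 0.275. Fibroblast and extracellular matrix genes had 39.6 kb and -0.149, and potassium channel genes 54.6 kb and -0.002. The part of span in the differences of these lists was not tested.

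**Figure D4:**
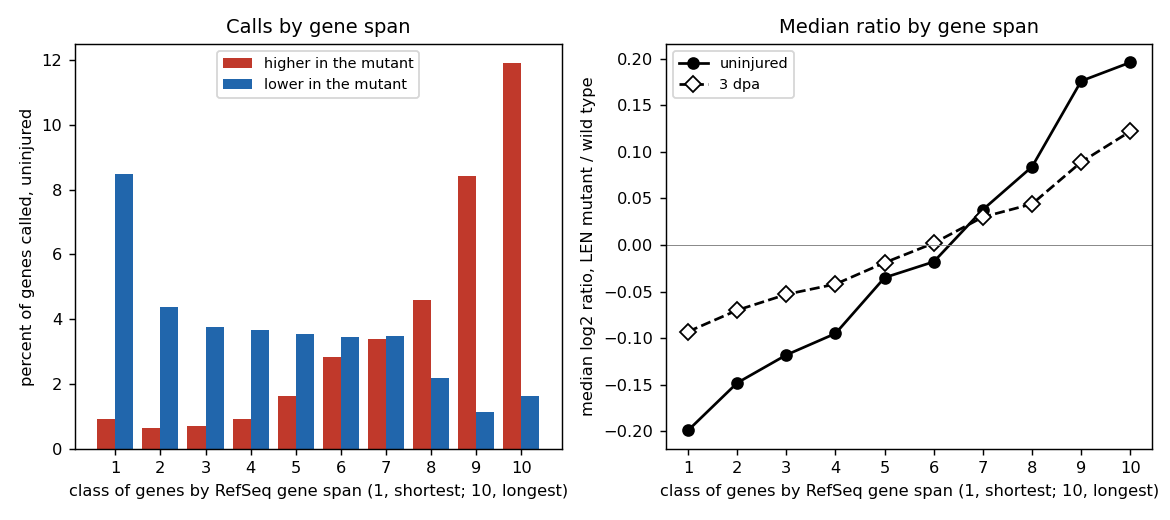
Percent of genes called higher (red) and lower (blue) in the uninjured mutant heart (left), and median log2 ratio of mutant over wild type in uninjured (filled circles) and 3 dpa hearts (open diamonds, right), in 10 classes of tested genes by RefSeq gene span, from shortest (1) to longest (10). Higher calls go from 0.918% in the shortest to 11.9% in the longest class, and the medians of both comparisons go from below 0 to above 0.

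The uninjured and 3 dpa comparisons share no library, so the direction of an uninjured difference could be looked up in separate hearts where counts allowed. At 3 dpa 393 of the same 15424 genes were called (2.55%), of which 316 were higher (2.05%) and 77 lower (0.499%). Of the 593 genes higher in uninjured mutant hearts, 218 were higher at 3 dpa as well, which is 36.8% of the uninjured list and 218 of the 316 at 3 dpa. Their median 3 dpa log2 ratio was 0.82 over all 593, and 547 of them (92.2%) were above 0, against 49.3% of all tested genes. Among the 569 lower genes, 37 were lower at 3 dpa, or 6.5% of the uninjured and 48.1% of the 3 dpa list, and the median 3 dpa ratio of the 569 was -0.050. Without the liver, complement and thyroid lists that median was -0.067, with 291 of 500 below 0. The filter used uninjured levels only, so lower genes such as serpina1 (472, 0, 0 and 0 counts) could show no difference at 3 dpa. Outside those lists, UCP1 had 1982, 1, 6 and 4 counts. How far such genes hold the medians of the lower genes near 0 was not tested.

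By the smaller of the 2 ratios, the largest of the shared higher genes from 10 CPM upwards included PRKAA2, palm2akap2, hivep2b and HIPK2. The anchoring protein gene palm2akap2 had 895, 5188, 648 and 2591 counts (2.54 and 1.98). The zinc finger gene hivep2b had 141, 900, 150 and 517 counts (2.67 and 1.75). Also among them was nfixa, a transcription factor gene with 110, 365, 115 and 413 counts (1.72 and 1.81). Each mutant library of these genes was above both wild-type libraries.

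Shared lower genes from 10 CPM upwards were few. They included PLXNA4, the gene ANKRD9 with 628, 226, 828 and 190 counts (-1.46 and -2.13), and adh8a, an alcohol dehydrogenase gene with 806, 329, 868 and 413 counts (-1.28 and -1.09). Below that level, and named after their values were seen, were a pair of genes of the secretory calcium-binding phosphoprotein family, whose products serve mineralized tissues. The enamelin gene enam had 125, 7, 126 and 7 counts (-3.86 and -3.80). The gene scpp7 had 126, 0, 374 and 30 counts, at least 41.9-fold lower in the uninjured mutant and 12.6-fold lower at 3 dpa. Both mutant libraries were the low ones for each.

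Shared lower genes were frequent on the chromosome that carries lepb. RefSeq gave a chromosome for 24 of the 37, and 7 of the 24 (29.2%) lay on it, against 391 of 11190 tested genes (3.49%) and 5 of 138 shared higher genes (3.62%). Of all genes lower in uninjured hearts 4.59% lay there. Besides PLXNA4, the 7 included the gene myrfl with 722, 283, 617 and 198 counts (-1.34 and -1.65) and CDNF, a neurotrophic factor gene with 342, 154, 202 and 97 counts (-1.14 and -1.06). None of the 7 was within 500 kb of lepb, where 0 of 9 genes were called. The deletion and other alleles carried on the same chromosome cannot be told apart with these libraries.

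**Figure D5:**
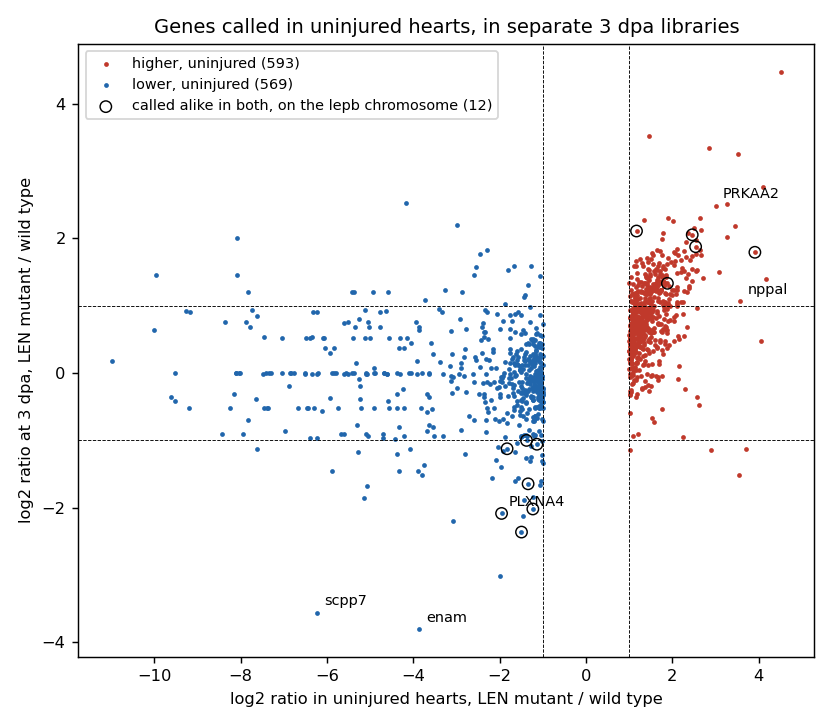
Log2 ratio of mutant over wild type at 3 dpa (vertical) against that in uninjured hearts (horizontal) for the 593 higher (red) and 569 lower (blue) genes; each point is a gene, dashed lines mark the threshold of 1, and black circles mark the 12 genes called alike in both comparisons on the chromosome of lepb. Red points lie mostly above 0 at 3 dpa (547 of 593), and the blue points spread around 0.

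Gene IDs without a symbol took 48 of the higher and 29 of the lower calls, among 557 tested. The largest ratio of all genes from 10 CPM upwards belonged to one of them, ENSDARG00000116751, with 41, 974, 0 and 49 counts (4.52, interval 4.125 to 5.06). The mutant uninjured library stood far above the other 3, and the mutant had more counts than wild type at either state.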

How the data were processed

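RNA of whole zebrafish hearts was sequenced in 4 libraries. The authors deposited raw read counts per Ensembl gene ID, made with HISAT2, featureCounts and build GRCz11 per the submitters' processing notes. Versions, the strand setting and the handling of multi-mapping reads are not given in the sources used here, so counts of paralogues, overlapping and antisense genes are uncertain. Per the file headers, all 4 tables came from first reads of lane 8.

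Libraries were scaled with TMM over all 4 (edgeR 4.0.16, R 4.3.3). Log2 ratios used edgeR's CPM formula with a prior count of 2. Intervals are exact Clopper-Pearson 95% intervals of the conditional binomial, which cover counting error only, since reads are not independent molecules. CPM levels use the total count. A count of 3, or 0.0857 to 0.0949 CPM, was the smallest level accepted. A fold against a library with 0 counts is computed against 3 counts. The procedure was tested on simulated data that held counting error only, so that test says nothing about variation between hearts. The remaining steps used Python 3.11.15.

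The gene name table gave 29201 of 32520 IDs a symbol, printed as listed there. Gene spans, neighbours and chromosomes came from the RefSeq list of GRCz12tu, another build, so no coordinates are printed. Of 1534 symbols in 42 gene lists, 75 were not matched, and in 1 list, erythroid markers, under 80% were. The comparison, lists and named genes were chosen with earlier results of these data known. Named were the leptin genes and their receptor, tested neighbours of lepb up to 500 kb away, 15 genes in each direction with the largest ratios from 10 CPM upwards, up to 4 called members of each list per direction from 5 CPM upwards (otherwise the 3 most abundant), the 10 largest in each direction called in both comparisons, and up to 6 called in opposite directions. The called genes fabp10a, tfa and CDNF were named outside these rules. Any other gene is marked in the text as named after its values were seen, or is given as an uncalled reference. Alternatives changed the scaling, the filter, the prior count and the threshold.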

Additional observations from a re-analysis of the deposited data

Results flagged for a closer look

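A total of 19 genes were called in opposite directions in uninjured and 3 dpa hearts. With 1 library a group the difference between the 2 states was not tested. Those with at least 10 CPM in the higher library of each comparison were 3 gene IDs without a symbol. The liver marker gene fabp10a, at 3748, 12, 0 and 7 counts, was also among the 19. ENSDARG00000082789 had 849, 11001, 5101 and 2364 counts, with log2 ratios of 3.70 in uninjured hearts and -1.13 at 3 dpa. ENSDARG00000080128 had 223, 2634, 1137 and 402 counts, with ratios of 3.56 and -1.51. ENSDARG00000114451 had 489, 200, 246 and 753 counts, with ratios of -1.28 and 1.59.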

How the results depend on the processing

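No paired analysis was possible because each group had 1 library. The counts of called genes moved with the filter and the threshold. Without a filter on low genes, 1004 genes were lower in uninjured hearts and 74 were lower in both comparisons. With a filter of 10 CPM, 210 were higher and 105 lower, so that 66.7% of calls were higher against 51.0%, and 78 and 6 genes were called in both comparisons. With a threshold of 2 on the log2 scale, 80 were higher and 245 lower (24.6% of calls higher), and 14 and 3 were called in both. With a prior count of 10, 20 genes were lower in both. Across the scalings tried, 567 to 618 genes were higher and 537 to 575 lower, and higher genes made up 49.6 to 53.5% of calls.

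Among list medians, that of the T, NK and B cell list changed sign from -0.155 to 0.221 without a filter and to 0.463 at 10 CPM, and that of the skeletal muscle list from -0.361 to 0.253 at 10 CPM. The thyroid list median moved from -1.961 to -0.585 at 10 CPM, where fewer members remain. With a prior count of 10, which draws the ratios of low genes towards 0, the liver list median moved from -6.872 to -5.459 and that of the complement list from -4.257 to -3.299. Of the named genes, NID2 fell short of the threshold with a prior count of 10 (-0.998). The alternative that left out the liver, complement and thyroid lists was chosen after seeing the data. No variation between hearts could be measured, and genes near 3 counts cannot show a difference at this depth.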

Other observations

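Some gene groups were not described above. Their counts of calls stand beside shares of 3.84% called higher and 3.69% called lower over all tested genes. Circadian clock genes had 2 of 39 called higher and 0 lower, with a median log2 ratio of -0.019. They were npas2, with 151, 414, 191 and 239 counts (1.45 in uninjured hearts and 0.30 at 3 dpa), and CLOCK (ENSDARG00000011703, 1 of 2 IDs with the symbol), with 79, 228, 105 and 249 counts (1.51 and 1.21), both encoding activators of the clock. The other CLOCK ID was not called. Potassium channel genes had 3 of 16 called higher and 0 lower, with a median of -0.002. Of the neutrophil markers called lower, the matrix protease gene MMP9 had 503, 222, 1101 and 1304 counts (-1.17). Among fibroblast and extracellular matrix genes 1 of 49 was called higher and 3 lower, with a median of -0.15. Splicing and RNA processing genes had 0 of 51 called, and thrombocyte and coagulation markers 0 of 18.

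Erythroid markers, for which 16 of 22 symbols were matched, had 2 of 16 called higher and 1 lower. Of the 16 tested, 11 were below 0, so the 2 higher genes named next go against most of the list. The transferrin receptor gene tfr1a, through which cells take up iron, had 2456, 5722, 4954 and 8132 counts (1.23 and 0.70). The mitochondrial iron importer gene SLC25A37 had 69, 294, 150 and 530 counts (2.07 and 1.79). Each mutant library was above the wild-type library of the same state for both genes, while the list's summed level was 6100 CPM in wild type and 4817 CPM in the mutant uninjured library.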
